A study of Mus musculus with 8 samples.

Results

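The cells described here were CD4 T cells of the mouse colonic lamina propria that carried transcripts of Il17a and none of Il22 or Ifng. They were picked cell by cell from counts of unique molecular identifiers (UMIs), each of which marks 1 captured transcript. A cell was a member if the authors had listed it, if it held at least 2 UMIs summed over the T cell genes Cd3e, Cd3d, Cd3g, Trac and Trbc2, and if it held at most 1 UMI each of Cd79a (B cells), Col3a1 (fibroblasts) and C1qa (macrophages). It also had 0 UMIs of Foxp3, the factor of regulatory T cells, at least 2 of Il17a, and 0 of Il22 and Ifng. The rule found 1617 cells, which were 5.90% of the 27420 listed cells and 9.89% of the 16356 Foxp3-negative cells that passed the T cell criteria. Since these 12 genes chose the members, their levels are a description and were not tested.

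The study compared wildtype mice with mice carrying the RORgtS182A substitution, with and without colitis caused by dextran sulfate sodium (DSS), a detergent-like polymer that injures the colonic epithelium. All mice were C57BL/6, 10 to 12 weeks old and kept specific pathogen free. There were 4 groups with 2 biological replicates each, so every genotype was seen with and without DSS, and libraries are numbered 1 and 2 within a group. Treated mice drank 2% DSS for 7 days and regular water for 3 days, untreated mice drank regular water throughout, and both were taken on day 10. The series title names the substitution S182A and the sample titles name a knock-in S203A. Gene counts do not show a substitution, so they do not check the genotype. All 8 libraries were made from digested colon, Percoll-purified and enriched for CD4 T cells with a kit, and sequenced with droplet 3′ chemistry.

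Th17 cells guard the gut barrier through interleukin-17A and interleukin-17F, which make epithelial cells release antimicrobial peptides and chemokines that call in neutrophils. Their fate is set by transcription factors that include Rora, Stat3, Batf, Irf4 and Maf, and is sustained by interleukin-23 acting through its receptor Il23r. Some Th17 cells also make interleukin-22, which acts on the epithelium, and others take up interferon gamma and other features of T helper 1 (Th1) cells.

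The members carried other Th17 genes that the rule had not used, at very unequal frequency. Rora was detected in 92.0% of members, Il17f in 28.9% (467 cells), Il1r1 in 27.5%, Il23r in 10.6% and Ccr6 in 9.09%. Free RNA was gauged in barcodes without Cd4 and T cell UMIs that carried 2 or more UMIs of a fibroblast, macrophage or B cell gene. The highest share in any library of these was 0.704% for Il17f and 0.423% for Il23r, so those shares in members lay above it. Fibroblast barcodes held Rora in up to 73.7% and Il1r1 in up to 64.1%, and B cell barcodes held Ccr6 in up to 7.84%, as genes of their own. The median depth per library was 3762 to 6822 UMIs in fibroblast, 1932.5 to 4482 in macrophage and 2596 to 10216 in B cell barcodes, and 2076.5 to 3284.5 in members. Of Il17a itself, 2 or more UMIs were found in 18 of 7292 fibroblast, 18 of 5362 macrophage and 6 of 4605 B cell barcodes, with 1.69% as the highest share in any library.

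Markers of other T cells were found in members at unequal frequency, and those of other cell types varied by library. All 1617 members had a Cd4 UMI, as had every listed cell, and 4 (0.247%) had a Cd8a UMI. Trdc, the constant region of the gamma-delta T cell receptor, was found in 11 members (0.680%), and any gamma-delta constant region in 159 (9.83%). Csf2 was found in 0.309% of members, Tbx21, the Th1 factor, in 3.90% and Il10 in 8.78%. Ikzf2, also known from regulatory T cells, was found in 14.5% and Gata3, the Th2 factor, in 13.3%. In the fibroblast, macrophage and B cell barcodes the highest share in any library was 0.200% for Cd8a, 2.99% for Trdc, 0.966% for Csf2, 1.68% for Tbx21, 6.30% for Ikzf2, 1.23% for Gata3 and 26.2% for Il10, which macrophages also express. The shares of Trdc and Csf2 in members were thus not above it. For Il10 the 26.2% came from macrophage barcodes. Its highest share was 4.01% in fibroblast and 4.82% in B cell barcodes, below the 8.78% in members. The 6 regulatory T cell markers other than Foxp3 summed to 1047 to 1605 CPM per library (here counts scaled by the total of its members alone, while CPM of single genes are further scaled between libraries), the 8 Th1 markers to 572 to 749 CPM and the 6 markers of group 3 innate lymphoid cells to 411 to 801 CPM. Summed over the marker list of each type, B and plasma cell genes ranged from 515 to 7262 CPM and macrophage genes from 184 to 2784 CPM. Neutrophil genes ranged from 0 to 11.2 CPM, fibroblast genes from 6.13 to 95.6 CPM and epithelial genes from 9.55 to 349 CPM. At least 2 UMIs of such markers were present in 257 members (15.9%).

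The libraries held 34497509 to 46960005 UMIs, of which the members held 292287 to 1335256. mutant DSS library 1 gave 492 of the members and untreated mutant library 1 gave 79. Of 99487 different barcode sequences, 1176 occurred in more than 1 library, and 88 did so among listed cells.

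The share of members among Foxp3-negative T cells did not separate the groups. In untreated mice the share was 6.27% and 6.86% in the wildtype and 4.90% and 12.2% in the mutant. After DSS it was 11.8% and 6.77% in the wildtype and 22.8% and 5.84% in the mutant. The 2 mutant replicates after DSS were the highest and the second lowest of all 8 libraries, and the groups overlapped. The DSS libraries averaged 11.8% ± 7.77 and the untreated ones 7.56% ± 3.22 (SD, n = 4), a difference of 4.23 percentage points (two-sided exact permutation test, p = 0.429). Without mutant DSS library 1 that difference was 0.575 points. Mutant libraries averaged 3.50 points above wildtype (exact p = 0.686), and 0.274 points below it without mutant DSS library 1 (a difference of -0.274). Both p values were 0.686 after Benjamini-Hochberg adjustment over these 2 comparisons. Every cell was then thinned to 1000 UMIs, which left out 299 Foxp3-negative cells that were shallower, and the whole rule was applied again. The shares were then 4.88%, 4.33%, 3.61%, 12.1%, 8.43%, 5.36%, 19.2% and 3.73% in the same order of libraries. They are not shares of the same cells, since thinning also removed UMIs of the rule's genes. In untreated wildtype library 1 the Foxp3-negative cells that passed the T cell criteria went from 1850 to 1476.

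Among the cells with 2 or more Il17a UMIs, members took a larger part after DSS. This part was 44.4% and 37.6% in untreated wildtype and 35.7% and 41.9% in untreated mutant libraries. It was 50.4% and 59.7% in DSS-treated wildtype and 56.6% and 58.0% in DSS-treated mutant libraries. All 4 DSS libraries lay above all 4 untreated ones, with means of 56.2% ± 4.08 and 39.9% ± 3.98 (SD, n = 4) and a difference of 16.3 points. Since Il17a, Il22 and Ifng set the rule, this is a description with no test. The part with Ifng was lower in each DSS library than in each untreated one, with means of 31.4% and 43.2% (difference -11.8 points). The part with Il22 averaged 19.7% after DSS and 31.7% without it (difference -12.0 points), with wildtype DSS library 1 at 27.7% above untreated wildtype library 1 at 24.1%. After thinning, the part of members differed by 15.5 points, with untreated wildtype library 1 at 67.3% above wildtype DSS library 1 at 65.7%. These 3 parts sum to more than the whole, because cells with Ifng could also hold Il22, and their comparisons were chosen after the shares had been seen.

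**Figure D1:**
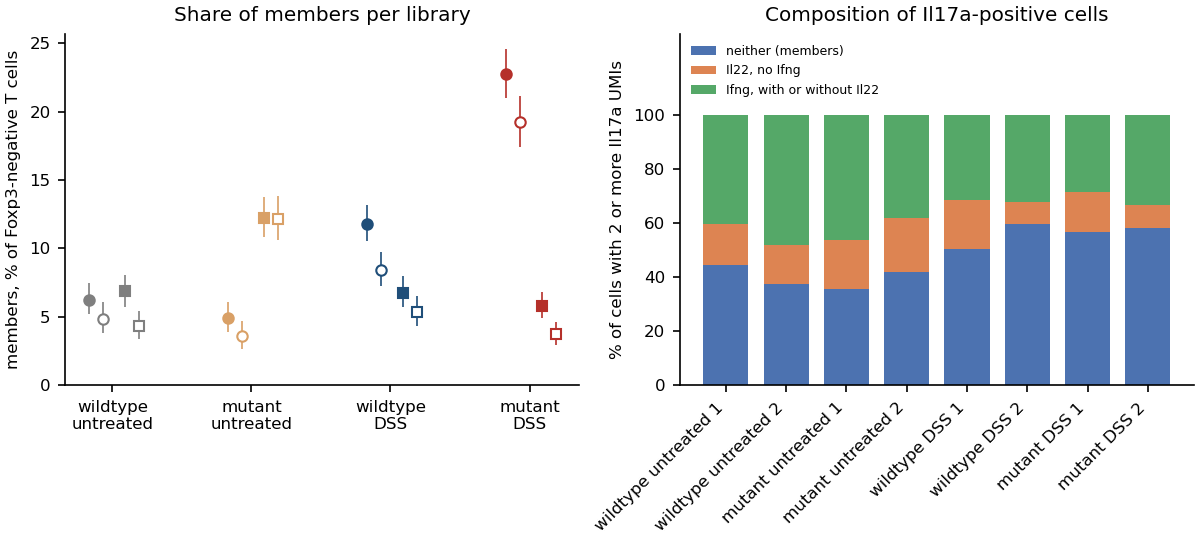
Left, members as a percentage of Foxp3-negative T cells in each library (filled circles replicate 1, filled squares replicate 2, open symbols after thinning to 1000 UMIs per cell, bars 95% exact binomial intervals that cover counting error only). Right, each library's cells with 2 or more Il17a UMIs split into members, cells with Il22 and no Ifng, and cells with Ifng. Members take 35.7% to 44.4% of the bar in untreated libraries and 50.4% to 59.7% in DSS libraries.

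Il17a, the gene of the rule, ranged widely among members. The median was 4 UMIs per cell in both untreated wildtype libraries, 6 and 8 in the untreated mutant, 6 and 5 in the DSS-treated wildtype, and 6 and 5 in the DSS-treated mutant, and the highest cell held 94. Just inside the threshold, 304 members (18.8%) held exactly 2 Il17a UMIs, and 482 (29.8%) held 10 or more. Just outside it, 603 cells held 1 Il17a UMI and otherwise met the rule. Il17f was detected in 15.1% of the members with exactly 2 Il17a UMIs and in 10.4% of those cells just outside. At exactly 2 Il17a UMIs the share was 23.3% to 37.8% in the 4 untreated libraries and 6.19% to 7.69% in the 4 DSS libraries, so the pooled value depends on which libraries supply the cells. It was detected in 22.2% of members with 3 to 5 Il17a UMIs, 34.4% with 6 to 15, and 46.7% with 16 or more. The library ranges of these shares overlapped, and the median depth of the bins overlapped too, from 2021 to 4002.5 UMIs per cell.

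**Figure D2:**
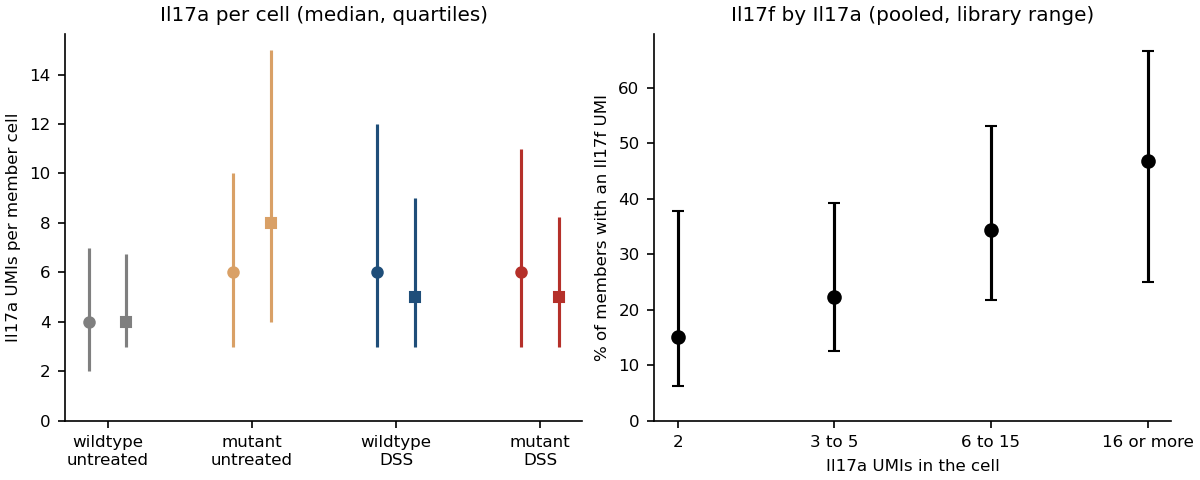
Left, Il17a UMIs per member cell in each library (symbol median, bar quartiles, circles replicate 1 and squares replicate 2). Right, the percentage of members with an Il17f UMI by the number of Il17a UMIs in the cell (point all libraries pooled, bar lowest to highest library). The pooled share is 15.1% at 2 Il17a UMIs and 46.7% at 16 or more.

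Il17a and Il17f are neighbours on mouse chromosome 1, and the 250 bases before their RefSeq starts are shown with those of Il23r because nuclear receptors such as Rora bind AGGTCA half-sites. Capitals mark AGGTCA, or TGACCT where the letters lie on the opposite strand. The windows (RefSeq, build GRCm38.p6) are chr1:20730655-20730904 on the plus strand for Il17a, chr1:20784271-20784520 on the minus strand for Il17f and chr6:67491856-67492105 on the minus strand for Il23r.
Il17a: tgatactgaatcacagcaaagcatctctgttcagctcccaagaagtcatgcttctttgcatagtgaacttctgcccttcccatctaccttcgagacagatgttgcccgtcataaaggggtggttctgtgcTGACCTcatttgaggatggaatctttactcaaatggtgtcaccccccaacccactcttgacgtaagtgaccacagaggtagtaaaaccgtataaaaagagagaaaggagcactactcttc
Il17f: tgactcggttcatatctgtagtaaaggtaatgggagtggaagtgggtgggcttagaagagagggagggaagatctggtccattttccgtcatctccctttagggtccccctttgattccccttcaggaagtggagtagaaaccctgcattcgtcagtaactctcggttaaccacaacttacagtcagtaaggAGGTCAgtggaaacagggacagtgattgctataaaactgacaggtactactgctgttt
Il23r: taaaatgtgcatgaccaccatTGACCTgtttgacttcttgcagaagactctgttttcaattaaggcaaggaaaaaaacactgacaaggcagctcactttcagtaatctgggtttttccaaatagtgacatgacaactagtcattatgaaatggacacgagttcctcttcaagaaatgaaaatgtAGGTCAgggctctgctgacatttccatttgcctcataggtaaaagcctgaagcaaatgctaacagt
Il17a held 1 match 120 bases before its start, Il17f held 1 at 58 bases and Il23r held 2, at 229 and 66 bases. Searched on both strands, AGGTCA occurred in 4607 of 32851 windows of this length (14.0%). Among list genes it occurred in 1 of 18 windows of cytokine genes, that of Il17f, in 1 of 7 windows of Th17 transcription factor genes, in 3 of 12 of heat shock genes and in 3 of 13 of the group of LIM, lamina and S100 genes. A match is a description of the letters only.

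The comparison of DSS with untreated mice, averaged over both genotypes, asked how members differed 10 days after DSS was first given. UMIs of the members were summed per library and tested with edgeR's quasi-likelihood test and Benjamini-Hochberg adjustment over 6149 genes. At an adjusted p under 0.05, 107 genes were called (1.74%), 53 higher (0.862%) and 54 lower (0.878%) after DSS. The lower genes included those of cell shape and lamina, heat shock genes and Il23r, and the higher ones included Cxcr4, Areg, Nr4a3 and Tnfrsf9. The difference between the genotypes' DSS effects passed for 3 genes (0.0488%). In simulated counts, the test within the wildtype found 33.7% of genes changed by 1 on the log2 scale and 87.9% of those changed by 2. It also called 10 unchanged genes. Those counts took the spread typical of an expression level, not that of each gene, so the shares do not measure the power in these data. Within the wildtype, DSS gave 1 call (0.0163%), with 549 genes at an unadjusted p under 0.05. Within the mutant it gave 70 calls (1.14%), 27 higher (0.439%) and 43 lower (0.699%), and 4 without untreated mutant library 2 or 11 without untreated mutant library 1. The count of 107 was 14 without untreated mutant library 2, 30 without wildtype DSS library 2, 36 without untreated wildtype library 2 and 38 without untreated mutant library 1.

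Of 13 genes of the LIM, lamina and S100 group, which was put together from earlier results of these data and so is no independent evidence, 7 fell and 0 rose, with a median log2 fold change of -0.67 against 0.00 over all genes tested. Crip1 (ENSMUSG00000006360), a small LIM-domain protein, was at 1731 and 2314 CPM in untreated wildtype, 1697 and 1313 in untreated mutant, 745 and 915 in DSS-treated wildtype and 815 and 895 in DSS-treated mutant members. Each of the 4 DSS libraries was lower than each of the 4 untreated ones, which describes the values that gave the call and is no further evidence. Crip1 fell by 1.05 ± 0.13 on the log2 scale (SE, edgeR adjusted p = 0.00322) and was the 1 call in the wildtype alone (-1.29 ± 0.19, edgeR adjusted p = 0.0247). That wildtype call was lost without 5 of the 8 libraries, with adjusted p values of 0.0975 and 0.24 without untreated wildtype library 2 and wildtype DSS library 1, 0.129 without wildtype DSS library 2, and 0.0746 and 0.0795 without untreated mutant libraries 1 and 2. Lmna, which encodes the nuclear lamins A and C, was at 335, 274, 189 and 182 CPM untreated and 78.9, 139, 82.5 and 35.1 CPM after DSS, in the same order. It fell by 1.54 ± 0.21 on the log2 scale (edgeR adjusted p = 0.00322). Lgals1, the gene of galectin-1, was at 1115 to 1436 CPM untreated and at 554 to 827 CPM after DSS, and fell by 0.85 ± 0.12 (edgeR adjusted p = 0.00322). The averaged calls of Crip1, Lmna and Lgals1 held without any 1 library.

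Vim (vimentin), S100a10, S100a11 and Emp3 were the other 4 of the group that fell, by 0.67, 0.73, 0.66 and 0.70 on the log2 scale (edgeR adjusted p between 0.0117 and 0.0279). None of the 4 overlapped between untreated and DSS libraries. Here and for every other called gene, a lack of overlap adds no evidence, since the same comparison had called the gene. Genes without overlap were not counted over all genes tested. Each lost its call without some single libraries, with adjusted p up to 0.119 for Vim and 0.101 for S100a10 (both without untreated mutant library 1), 0.144 for S100a11 (without untreated mutant library 2) and 0.101 for Emp3 (without untreated wildtype library 2). After thinning to 1000 UMIs the call of Vim was lost (-0.54, adjusted p = 0.0559) and those of the other 3 held.

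Among 14 cytokine receptor genes tested, Il23r fell and 0 rose. Il23r (ENSMUSG00000049093) was at 42.6 and 52.1 CPM in untreated wildtype, 66.4 and 63.3 in untreated mutant, 34.0 and 28.3 in DSS-treated wildtype, and 23.3 and 16.6 CPM in DSS-treated mutant members. The DSS libraries were lower than the untreated ones without overlap in each genotype. The averaged log2 fold change was -1.09 ± 0.22 (edgeR adjusted p = 0.0161), with -1.61 ± 0.29 in the mutant (0.0146) and -0.58 ± 0.31 in the wildtype (0.614). The difference between those effects, -1.03 ± 0.43, did not pass (edgeR adjusted p = 0.886). The averaged call was lost without untreated wildtype library 2 (0.118), untreated mutant library 2 (0.0986) or 1 (0.0601), and wildtype DSS library 2 (0.0674). The mutant call was lost without untreated mutant library 1 (0.11) or 2 (0.234).

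Of 12 Th17 transcription factor genes, 0 rose and 0 fell, with a median log2 fold change of -0.03. Rora was at 986 to 1426 CPM and Maf, a factor of Il10 and residency programmes, at 1044 to 1621 CPM, with no order by treatment beyond the spread (edgeR adjusted p = 0.525 and 0.368).

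Genes of cytokine output, homing and receptor signalling were among those higher after DSS. Areg, the epidermal growth factor family member amphiregulin, was at 477 and 341 CPM in untreated wildtype, 457 and 655 in untreated mutant, 813 and 709 in DSS-treated wildtype, and 1079 and 750.4 CPM in DSS-treated mutant members. It was the 1 of 9 cytokine genes that rose, by 0.81 ± 0.16 (edgeR adjusted p = 0.0161), and no untreated library reached a DSS library. Cxcr4, the receptor of the chemokine CXCL12, was at 80.1 to 112 CPM untreated and 150.1 to 257 CPM after DSS. It was the 1 of 15 homing and residency genes that rose, by 1.06 ± 0.19 (edgeR adjusted p = 0.00865). Nr4a3, an orphan nuclear receptor induced by antigen receptor signals, was at 187 to 286 CPM untreated and 380.3 to 460.2 CPM after DSS, and rose by 0.81 ± 0.13 (edgeR adjusted p = 0.00595). Of 9 genes of the antigen receptor response it was the 1 that rose, and Irf8, an interferon regulatory factor, was the 1 that fell (-1.27 ± 0.29, edgeR adjusted p = 0.0377), with a median of -0.08 over the list. The call of Irf8 was lost without 6 of the 8 libraries, with adjusted p up to 0.303 without untreated mutant library 2. Irs2, an adaptor of insulin and interleukin-4 receptors, was at 42.6 to 159 CPM untreated and 149 to 264 CPM after DSS, with 1 overlapping pair of libraries, and rose by 1.33 ± 0.23 (edgeR adjusted p = 0.00685), a call that held without any 1 library. Tnfrsf9, the costimulatory receptor 4-1BB, rose by 1.14 ± 0.23 (edgeR adjusted p = 0.0161), with mutant DSS library 2 at 77.6 CPM below untreated wildtype library 1 at 93.7 CPM.

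Some of these calls rested on single libraries. Without untreated mutant library 2 the adjusted p was 0.0659 for Nr4a3, 0.0894 for Cxcr4, 0.0559 for Areg and 0.144 for Tnfrsf9. Without untreated wildtype library 2 it was 0.0763 for Cxcr4, 0.101 for Areg and 0.133 for Tnfrsf9. Areg was also lost without untreated mutant library 1 (0.118), wildtype DSS library 1 (0.0764) or 2 (0.0674). Tnfrsf9 was also lost without untreated mutant library 1 (0.0799), wildtype DSS library 2 (0.0829) or mutant DSS library 1 (0.0622).

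**Figure D3:**
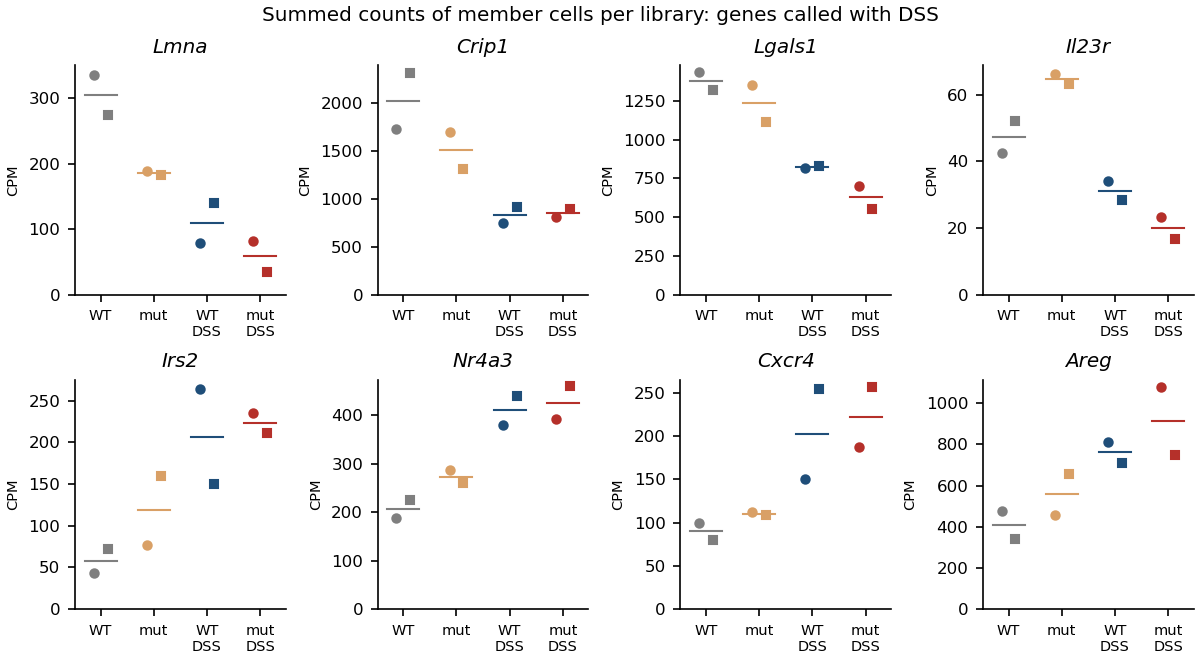
CPM of summed member counts in each library for 8 genes called for DSS averaged over both genotypes (WT wildtype, mut mutant; circles replicate 1, squares replicate 2, lines the mean of 2). Lmna, Crip1, Lgals1 and Il23r are lower in the DSS groups, and Irs2, Nr4a3, Cxcr4 and Areg are higher.

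Genes known mainly from other cell types were also among the DSS calls. Cd14, a receptor of monocytes and macrophages, was at 19.9, 56.1, 6.98 and 1.27 CPM untreated and 25.2, 28.3, 63.0 and 73.9 CPM after DSS, and rose by 1.94 ± 0.41 averaged over both genotypes (edgeR adjusted p = 0.0219). Lgmn, a lysosomal protease that macrophages express highly, was at 12.7 to 31.2 CPM untreated and 49.3 to 113 CPM after DSS (1.95 ± 0.31, edgeR adjusted p = 0.00518). The summed macrophage markers in members, 6 genes, were at 956, 2784, 428 and 557 CPM untreated and 1033, 1684, 1190 and 184 CPM after DSS, with 1 of the 6 at 0 in untreated mutant library 1 and in mutant DSS library 2. Their part in these 2 results was not tested. Without untreated mutant library 2 the adjusted p was 0.285 for Cd14 and 0.0876 for Lgmn, and Cd14 was also lost without wildtype DSS library 1 (0.0765) or 2 (0.0829).

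Heat shock genes, which encode chaperones, were lower after DSS in 4 of 10 genes and higher in 0, with a median log2 fold change of -0.57 averaged over both genotypes. In the wildtype alone 0 of the 10 were called, with a median of 0.31 and 6 above 0. Hsp90aa1, the inducible HSP90, was at 1799 and 2783 CPM in untreated wildtype, 6276 and 5491 in untreated mutant, 2328 and 1564 in DSS-treated wildtype and 1641 and 1688 CPM in DSS-treated mutant members. The untreated mutant libraries alone stood apart from the other 6. The averaged fall was 1.03 ± 0.14 (edgeR adjusted p = 0.00322). In the mutant alone, 6 of the 10 fell and 0 rose (median -1.60), and Hsp90aa1 fell by 1.82 ± 0.21 (edgeR adjusted p = 0.00102). In the same comparison the 4 B and plasma cell markers tested had a median of 1.75 and the 5 macrophage markers 1.13, with each gene above 0 and 0 called. The B and plasma cell markers summed to 541 and 1439 CPM in untreated and 7262 and 515 CPM in DSS-treated mutant members. Without cells that held 2 or more UMIs of other cell types' markers, 104 genes were called in the mutant, 64 of the 70 among them. The part of these cell types in the result was otherwise not tested. Hspe1, a mitochondrial chaperonin, followed the same order, with 463 and 761, 1596 and 1478, 630.1 and 425, and 456 and 379 CPM. It fell by 1.87 ± 0.23 in the mutant (edgeR adjusted p = 0.00177), and the mutant calls of both genes held without any 1 library. The other 4 mutant calls were lost without untreated mutant library 1 (Hspa1a 0.236, Hspd1 0.0889, Hsp90ab1 0.14 and Hsph1 0.228), which left 2 of the 6. Of the 4 averaged calls, those of Hspd1 (0.116) and Hsp90ab1 (0.0903) were lost without that library. The difference between the genotypes' DSS effects passed for 0 of the 10 (median -1.59).

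Without DSS, mutant and wildtype members differed in 10 of 6149 genes (0.163%), 9 higher (0.146%) and 1 lower (0.0163%) in the mutant. Of 10 heat shock genes, 6 rose and 0 fell, with a median log2 fold change of 1.34 against -0.01 over all genes tested. Other lists lay lower in the mutant with 0 genes called. The 5 macrophage markers tested had a median of -1.90, the 4 B and plasma cell markers -1.69 and the 10 proliferation genes -1.16, with 0 above 0 in each. The macrophage markers summed to 956 and 2784 CPM in untreated wildtype and 428 and 557 CPM in untreated mutant members, and the B and plasma cell markers to 6305 and 2010 against 541 and 1439 CPM. Without cells that held 2 or more UMIs of other cell types' markers, 28 genes were called, 9 of the 10 among them. Cd14 was too low to be tested there. The part of these lists in the rise of the heat shock genes was otherwise not tested. Lag3, a checkpoint receptor, Ifrd1, a transcriptional co-regulator (0.99), and Jund, an AP-1 subunit (0.87), rose as well. After thinning to 1000 UMIs the 6 heat shock calls held, and those of Ifrd1 (0.71, adjusted p = 0.657) and Jund (0.47, adjusted p = 0.737) were lost. Cd14 was the 1 gene that fell. With DESeq2, 13 genes rose and 1 fell, while without the filter on low counts 39 rose and 64 fell. The count of 10 was 0 without untreated mutant library 1, 2 without untreated mutant library 2 or wildtype DSS library 1, 6 without untreated wildtype library 2, and 44 and 47 without mutant DSS libraries 1 and 2.

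Hspa1a (ENSMUSG00000091971), an inducible HSP70, was at 116 and 38.1 CPM in untreated wildtype and at 2018 and 399 CPM in untreated mutant members, which is a rise by 4.004 ± 0.63 on the log2 scale (edgeR adjusted p = 0.0237). After DSS it was at 150.1 and 175 CPM in wildtype and 104 and 211 CPM in mutant members, below both untreated mutant libraries. Hspa1b moved alike (62.4 and 32.1 against 1156 and 218 CPM, 3.84 ± 0.66, edgeR adjusted p = 0.0314), but it is a near-identical copy of Hspa1a and reads cannot be parted with certainty. Hsp90aa1 rose by 1.36 ± 0.20, Hsph1, an HSP110, by 1.73 ± 0.28 (both edgeR adjusted p = 0.0237), Hspe1 by 1.32 ± 0.23 (0.0314) and Hspa8, the constitutive HSP70, by 0.86 ± 0.15 (0.0318). Without untreated mutant library 1, each of the 6 lost its call, with adjusted p from 0.159 for Hspa1a to 0.391 for Hspa8. Without untreated mutant library 2, Hsp90aa1 (0.107), Hsph1 (0.0675), Hspe1 and Hspa8 (both 0.281) lost theirs. Without untreated wildtype library 1, Hspa1b (0.111), Hspa8 (0.125), Hsph1 (0.139) and Hspe1 (0.157) did, and without untreated wildtype library 2, Hspa1a (0.265), Hspa1b (0.354) and Hsph1 (0.0793) did. Without wildtype DSS library 1, Hspa1a and Hspe1 (both 0.0504), Hspa1b (0.0517) and Hspa8 (0.0744) lost theirs, and Hspa8 did without wildtype DSS library 2 (0.0651). Members of untreated mutant libraries had a median of 3.23% and 3.09% mitochondrial UMIs, against 3.23% and 2.79% in untreated wildtype.

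The 250 bases before the start of Hspa1a are shown because genes of the heat shock response carry paired GAA units that heat shock factor binds. The window (RefSeq, build GRCm38.p6) is chr17:34972157-34972406 on the minus strand, and capitals mark GAANNTTC, which reads the same on both strands.
Hspa1a: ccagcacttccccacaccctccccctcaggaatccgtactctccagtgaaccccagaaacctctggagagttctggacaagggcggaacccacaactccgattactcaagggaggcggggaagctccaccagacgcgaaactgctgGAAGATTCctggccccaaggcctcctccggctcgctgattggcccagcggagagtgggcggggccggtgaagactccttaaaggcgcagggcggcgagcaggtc
The match began 104 bases before the start. Of the 10 heat shock genes, 7 were matched to the RefSeq windows, with 12 windows in all. Of these 12, 5 held GAANNTTC, 1 each of Dnaja1, Hspa1a, Hspa1b, Hspd1 and Hspe1, beside 2199 of 32851 windows (6.69%). GAANNTTC and AGGTCA cannot overlap, and they were counted apart.

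Lag3 (ENSMUSG00000030124) was at 59.6 and 82.1 CPM in untreated wildtype and 182 and 244 CPM in untreated mutant members, which is a rise by 1.60 ± 0.26 on the log2 scale (edgeR adjusted p = 0.0237). After DSS it was at 95.3 and 131 CPM in the wildtype and 79.5 and 57.3 CPM in the mutant. The order of the genotypes in CPM was thus opposite in untreated and DSS-treated mice, with no overlap in either. After DSS, however, Lag3 was not called between the genotypes (edgeR adjusted p = 0.999976). Thinned to 1000 UMIs, that log2 fold change was -0.295 (edgeR adjusted p = 0.996). The lower level in the mutant after DSS is therefore a description of 2 libraries per group and no established reversal. The difference between the genotypes' DSS effects passed its own test (-2.23 ± 0.36, edgeR adjusted p = 0.0299), 1 of 3 such calls (0.0488%), of which 2 were higher (0.0325%) and 1 was lower (0.0163%). The untreated call was lost without untreated wildtype library 1 (0.125) or 2 (0.109), untreated mutant library 1 (0.159) or 2 (0.498), and wildtype DSS library 1 (0.0504). After thinning to 1000 UMIs both calls were lost, at 0.50 for untreated mutant against wildtype (adjusted p = 0.985) and -0.80 for the difference between DSS effects (adjusted p = 0.997).

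Il17f (ENSMUSG00000041872) was also highest in untreated mutant members, without passing the test between genotypes there. It was at 187 and 168 CPM in untreated wildtype, 325 and 521 in untreated mutant, 227 and 142 in DSS-treated wildtype and 215 and 144 CPM in DSS-treated mutant members. Both untreated mutant libraries were above the other 6. The log2 fold change of mutant over wildtype was 1.29 ± 0.27 without DSS (edgeR adjusted p = 0.0765) and -0.05 ± 0.26 with it (1). DSS against untreated gave -1.24 ± 0.26 in the mutant (edgeR adjusted p = 0.0271) and 0.10 ± 0.28 in the wildtype (0.952). The difference of these, -1.34 ± 0.38, did not pass (edgeR adjusted p = 0.46). The mutant call was lost without untreated mutant library 2 (0.49) or mutant DSS library 2 (0.107). Tnf, another cytokine gene, was at 14.2 and 10.0 CPM in untreated wildtype and 45.4 and 55.7 CPM in untreated mutant members (2.12 ± 0.45, edgeR adjusted p = 0.0765).

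**Figure D4:**
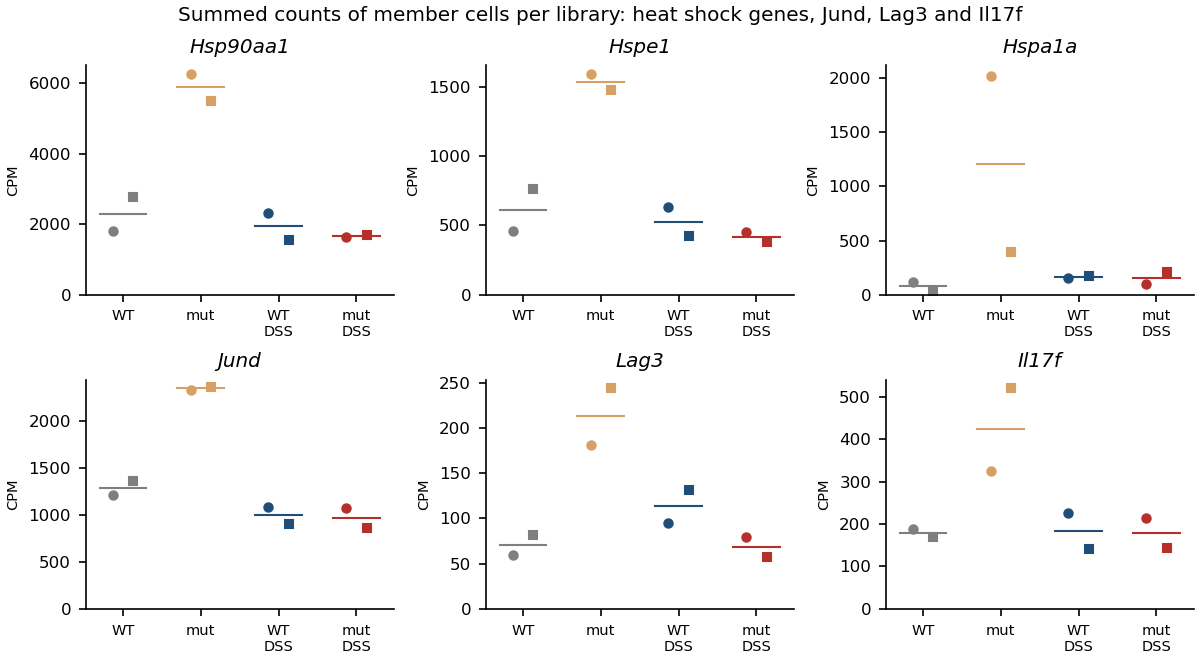
CPM of summed member counts in each library for Hsp90aa1, Hspe1, Hspa1a, Jund, Lag3 and Il17f (WT wildtype, mut mutant; circles replicate 1, squares replicate 2, lines the mean of 2). The untreated mutant libraries are the highest for each of the 6 genes, and Hspa1a is at 2018 CPM in 1 of them and 399 CPM in the other.

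After DSS, mutant and wildtype members gave 0 calls among 6149 genes in the edgeR test (0%), with 140 genes at an unadjusted p under 0.05 and 0 called by DESeq2. Averaged over both treatments, edgeR likewise called 0 (0%), with 314 at an unadjusted p under 0.05.

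Members were then set beside 3 other populations of the same libraries. The first were 379 poised cells, which had no UMI of Il17a, Il22, Ifng or Foxp3 and at least 2 summed over 4 Th17 genes, among them Il23r, Ccr6 and Il1r1, all 4 therefore left untested here. Poised cells numbered 23 to 71 per library. Of 5179 genes, 381 were called (7.36%), 211 higher in members (4.07%) and 170 lower (3.28%). Members were higher in further cytokine and chemokine genes, tissue homing receptors and Th17 factors, and lower in genes of follicular helper and naive T cells. Members had fewer UMIs per cell than poised cells in 7 of 8 libraries by the median. After thinning to 1000 UMIs, 24 of 1130 genes tested were called in the libraries that still held enough of both. Of these, 23 were among the 381. Cells that lost UMIs of the rule's genes by thinning could change population there.

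Of 8 cytokine genes, 4 rose and 1 fell. Il17f had a median of 203.5 CPM in members (145 to 527 over 8 libraries) and 15.8 CPM in poised cells (3.76 to 94.8), was higher in members in 8 of 8 libraries, and differed by 3.101 ± 0.27 on the log2 scale (edgeR adjusted p = 3.55e-08). Areg had medians of 694 and 271 CPM and was higher in 7 of 8 libraries (1.34 ± 0.15, edgeR adjusted p = 2.68e-06). Tgfb1, a cytokine that also steers Th17 fate, had medians of 480.2 and 275 CPM (0.79 ± 0.12, edgeR adjusted p = 7.04e-05). Il10, an anti-inflammatory cytokine, fell (medians 52.6 and 108 CPM, -0.82 ± 0.21, edgeR adjusted p = 0.0175), a call lost without untreated mutant library 2 (0.0656), wildtype DSS library 1 (0.0568) or mutant DSS library 2 (0.0939). The chemokine genes Ccl20, whose product attracts CCR6 cells, and Cxcl3, whose product attracts neutrophils, rose as well. Ccl20 had medians of 69.1 CPM in members (24.5 to 219) and 0 CPM in poised cells (0 to 17.7), so that its fitted log2 fold change (4.01 ± 0.35, edgeR adjusted p = 3.55e-08) depends on the prior count and is no measure of size. Cxcl3 had medians of 265 and 76.2 CPM (2.15 ± 0.21, edgeR adjusted p = 1.71e-07), and both were higher in members in 8 of 8 libraries. After thinning Il17f, Areg and Tgfb1 kept their calls (adjusted p = 3.99e-05, 2.9e-05 and 0.049). Those of Cxcl3 (1.18, adjusted p = 0.147) and Il10 (-2.32, adjusted p = 0.0851) were lost, and Ccl20 was too low to be tested.

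Of 15 homing and residency genes, 6 rose and 2 fell. Cxcr6, a chemokine receptor of tissue-resident T cells, had a median of 520.4 CPM in members (268 to 646) and 158 CPM in poised cells (102 to 287) and was higher in 8 of 8 libraries (1.57 ± 0.11, edgeR adjusted p = 2.28e-09). Ccr7 and S1pr1, which direct T cells into and out of lymph nodes, fell by 1.09 ± 0.22 and 0.75 ± 0.16 (edgeR adjusted p = 0.00179 and 0.00416). After thinning Cxcr6 kept its call (1.26, adjusted p = 0.0409). Cd69 (0.64, adjusted p = 0.325), Cxcr4 (1.21, 0.283) and Gpr183 (-0.23, 0.888), which were among the 6, lost theirs, with the sign turned for Gpr183.

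Of 11 Th17 transcription factor genes tested, 7 rose and 1 fell, with a median of 0.43 against -0.02 over all genes. Bhlhe40, a factor that supports cytokine output in T cells, had medians of 859.5 and 390.4 CPM with no overlap between the populations (1.16 ± 0.08, edgeR adjusted p = 1.04e-09). Ikzf3 (Aiolos) rose by 0.91, Irf4 by 0.69, Runx1 by 0.47, Rora by 0.45, Stat3 by 0.43 and Maf by 0.39. Batf, another Th17 factor, fell by 0.56 (edgeR adjusted p = 0.0251), and lost its call without 5 of the 8 libraries, with adjusted p up to 0.0994 without mutant DSS library 2. Irf4 lost its call without untreated mutant library 1 (0.0603) or 2 (0.0554). After thinning Bhlhe40 kept its call (1.28, adjusted p = 0.00108). Ikzf3 (0.78, 0.304), Stat3 (0.69, 0.178), Rora (0.30, 0.505), Maf (0.28, 0.553) and Runx1 (0.0617, 0.967) lost theirs, with the log2 fold change and the adjusted p in brackets, and Irf4 and Batf were too low to be tested.

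Of 5 follicular helper genes, 3 fell and 0 rose (median -1.003). Among these 3, Bcl6 lost its call without 7 of the 8 libraries (adjusted p up to 0.124, without untreated mutant library 2). Of 5 naive T cell genes, 3 fell and 0 rose (median -0.75). Cxcr5, which guides cells to B cell follicles, had medians of 4.78 and 33.3 CPM and was lower in members in 8 of 8 libraries (-2.27 ± 0.45, edgeR adjusted p = 0.0017). Sh2d1a, the signalling adaptor SAP, fell by 1.24 ± 0.17 and Tcf7, a factor of naive and memory T cells, by 0.99 ± 0.15 (edgeR adjusted p = 2.52e-05 and 0.000126). Cd27, a costimulatory receptor that is lost with differentiation, had medians of 54.97 and 174 CPM (-1.54 ± 0.19, edgeR adjusted p = 6.83e-06). After thinning Cd27 kept its call (-2.48, edgeR adjusted p = 0.0359). The called follicular helper and naive genes, Cxcr5, Bcl6, Sh2d1a, Ccr7, S1pr1 and Tcf7, were too low to be tested after thinning. Kit, the stem cell factor receptor also found on innate lymphoid cells, was higher in members (medians 50.8 and 24.8 CPM, 1.36 ± 0.26, edgeR adjusted p = 0.00127). It was too low to be tested after thinning. The other tested markers of group 3 innate lymphoid cells, Tmem176a (0.68, 0.000602) and Tmem176b (0.62, 0.00716), were higher as well, so all 3 of 3 were, and after thinning both lost their calls (adjusted p = 0.304 and 0.688). Of 4 B and plasma cell markers, Igha was higher (0.80, edgeR adjusted p = 0.0202) and Ighm lower (-2.11, edgeR adjusted p = 6.99e-07). The call of Igha was lost without untreated wildtype library 1 (0.0766) or mutant DSS library 1 (0.0733). It was also lost after thinning, with the sign turned (-0.0738, edgeR adjusted p = 0.935). Without cells that held 2 or more UMIs of other cell types' markers, 406 genes were called, 324 of the 381 among them. The part of B and plasma cells and innate lymphoid cells in this comparison was otherwise not tested.

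The second population were 515 cells with 2 or more Il17a UMIs and Il22 but no Ifng. Of 5993 genes, 59 were called (0.984%), 17 higher in members (0.284%) and 42 lower (0.701%), and 36 without mutant DSS library 1. Members were lower in Il17f, proliferation genes, Kit and Vegfa. Genes of other cell types were among those higher in members, with medians of 984 and 413 CPM for Igha (0.93 ± 0.18, edgeR adjusted p = 0.00223), 1 of 4 B and plasma cell markers tested, and of 26.9 and 5.78 CPM for Cd14 (1.89 ± 0.35, 0.00125). After thinning Igha lost its call (0.0929, edgeR adjusted p = 0.975). Fabp4, known from adipocytes and macrophages, had medians of 8.60 and 0 CPM and was called too. With 18 to 131 Il22 cells per library, these levels are near the limit of detection. Without cells that held 2 or more UMIs of other cell types' markers, 47 genes were called, 40 of the 59 among them. The part of other cell types in this comparison was otherwise not tested. Members also had the lower median UMIs per cell in each of the 8 libraries, and after thinning 3 of 1631 genes tested were called. Cells that lost their Il22 UMIs by thinning could count as members there. How many members held Il22 transcripts that were not captured was not tested. Il17f had a median of 202 CPM in members (143 to 519.8) and 413 CPM in Il22 cells (202 to 642), and was lower in 7 of 8 libraries (-0.82 ± 0.13, edgeR adjusted p = 0.000181, and 1.87e-09 after thinning, but 0.0977 by DESeq2). Vegfa, a growth factor of blood vessels, had medians of 4.99 and 44.1 CPM and was lower in 8 of 8 libraries (-2.30 ± 0.31, edgeR adjusted p = 1.49e-05). Of 10 proliferation genes, 6 fell and 0 rose (median -0.76). Stmn1, Top2a and Mki67, which serve the dividing cell, fell by 0.88 ± 0.13, 0.90 ± 0.16 and 0.85 ± 0.17 (edgeR adjusted p = 9.08e-05, 0.000893 and 0.00468). After thinning, which left fewer cells, they were at -0.87, -0.92 and -0.78 and did not pass (adjusted p = 0.427, 0.536 and 0.931). Kit fell by 1.04 ± 0.19 (edgeR adjusted p = 0.0014). Without untreated mutant library 2, Mki67 and Kit lost their calls (both 0.0586). Ifngr1, a chain of the interferon gamma receptor, was higher in members in 8 of 8 libraries (0.33 ± 0.07, edgeR adjusted p = 0.00735; 0.0959, adjusted p = 0.975 after thinning). Iltifb is a near copy of Il22 whose reads cannot be parted from it, so its lower level (medians 7.84 and 33.1 CPM) follows the rule and is no result. It is still counted among the 59 genes called and the 42 lower ones.

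The third population were 1171 cells with 2 or more Il17a UMIs and Ifng. Of 6688 genes, 30 were called (0.449%), 10 higher in members (0.15%) and 20 lower (0.299%). The count was 16 without mutant DSS library 1, and 19 without mutant DSS library 2 or untreated wildtype library 2. Of 7 Th1 genes, 3 fell and 0 rose (median -0.84). Nkg7, a granule protein of cytotoxic and Th1 cells, had a median of 71.7 CPM in members (43.4 to 138) and 158 CPM in Ifng cells (112 to 204), and was lower in 8 of 8 libraries (-1.01 ± 0.11, edgeR adjusted p = 2.15e-05). Ccl5, a chemokine of effector T cells, had medians of 132 and 268 CPM (-0.83 ± 0.10, edgeR adjusted p = 6.79e-05), and Il12rb2, the Th1 chain of the interleukin-12 receptor, 29.6 and 58.1 CPM (-0.84 ± 0.15, edgeR adjusted p = 0.00295). Serpinb9 and Serpinb6b, inhibitors of granule proteases, fell by 1.05 ± 0.18 and 1.02 ± 0.13 (edgeR adjusted p = 0.00205 and 7.05e-05). Hopx, a small homeodomain protein of effector T cells, was higher in members in 8 of 8 libraries (medians 222 and 151 CPM, 0.47 ± 0.08, edgeR adjusted p = 0.00203). Il17f did not differ beyond its error (0.01 ± 0.13, edgeR adjusted p = 0.999), nor did Il23r (0.23 ± 0.16, 0.782). After thinning 26 of 1833 genes tested were called, of which 3 were among the 30. Nkg7 (-0.58, edgeR adjusted p = 0.392), Ccl5 (-0.11, 0.955) and Hopx (0.51, 0.232) were not called there. Il12rb2, Serpinb9 and Serpinb6b were too low to be tested there. Cells that lost their Ifng UMIs by thinning could count as members, so the thinned populations are not the same cells at lower depth. Members had the lower median UMIs per cell in each of the 8 libraries here too.

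**Figure D5:**
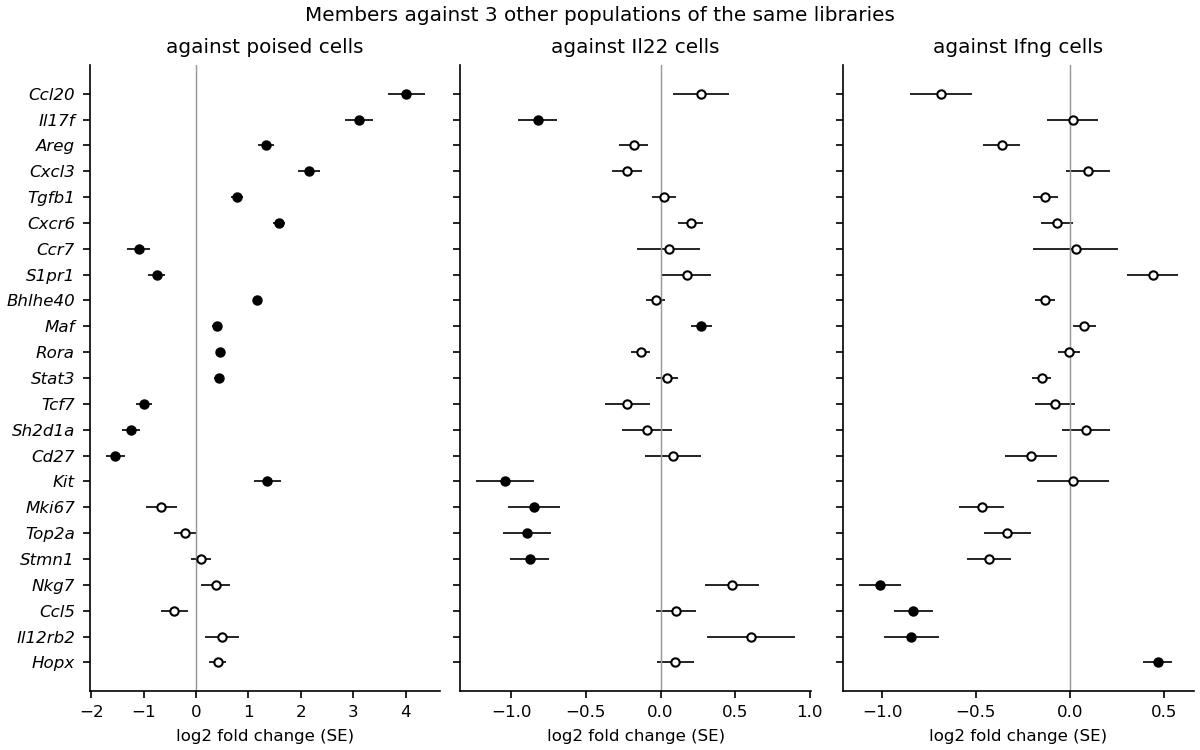
Log2 fold change of members over poised cells, Il22 cells and Ifng cells (3 panels with different horizontal scales) for 23 genes, with standard errors from edgeR's fit over 8 libraries. Filled points passed an adjusted p of 0.05 and open points did not, and Il17f lies at 3.101, -0.82 and 0.01 in the 3 panels.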

How the data were processed

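Droplet single-cell RNA sequencing gave 1 table of raw UMI counts per library, deposited by the authors as whole numbers, with barcodes of at least 500 UMIs. Per the submitters' processing notes, Cell Ranger 3.1.0, Seurat 4.0.1 and the build mm10 were used, with no role or order given. In 1 table the rows held gene identifiers and in 7 only numbers. Rows took their names from a deposited list of 31053 symbols, whose order was tested: of 30934 identifiers found in a reference table, 30468 (98.5%) had the listed symbol. How the authors chose the 27420 listed cells of 100673 barcodes is not given in the sources used here.

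Counts of member cells were summed per library and fitted with edgeR 4.0.16 in R 4.3.3 (filterByExpr, TMM, quasi-likelihood test, Benjamini-Hochberg over all genes tested, the genes of the rule left out), with all 8 libraries in 1 fit and, between populations, with the library as a block. CPM of single genes are the TMM-scaled values of these sums, and sums over marker lists are CPM of the plain member totals without that scaling, both computed here. DESeq2 1.42.0 was an alternative. Another left out cells with any gamma-delta constant region UMI, written below as without gamma-delta cells. It left out 159 members, of which 11 held Trdc, and the name does not settle their type. Fits were tested on simulated data. Shares of members among Foxp3-negative cells were compared by exact permutation, and intervals cover counting error only. Doublets were limited only by the rule's excluding genes, and no caller was run. Genes named were those of the lists, and per comparison up to 10 called genes in each direction at 20 CPM or more, of which the text gives a part. The members and the lists were chosen with earlier results of these data known. Nothing beyond 2 biological replicates per group is stated, and the replicate numbers follow deposit order and pair no mice. Values of some list members are not reported here.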

Additional observations from a re-analysis of the deposited data

Results flagged for a closer look

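The effect of DSS differed between mutant and wildtype members by the test of the difference itself for 3 genes. For Lag3, the mutant minus wildtype difference was -2.23 on the log2 scale (edgeR adjusted p = 0.0299). It was lost without 6 of the 8 libraries, with adjusted p up to 0.444 without untreated mutant library 2, and after thinning to 1000 UMIs, where it was -0.80 (adjusted p = 0.997). For Thbs1 the difference was 6.33 (edgeR adjusted p = 0.0224), from 34.1 and 82.1 CPM in untreated wildtype, 6.98 and 1.27 in untreated mutant, 18.6 and 36.1 in DSS-treated wildtype and 63.0 and 148 CPM in DSS-treated mutant members. Of its UMIs, 27.1% lay in 1 cell. For Cd14 it was 5.10 (edgeR adjusted p = 0.0224), and 17.9% of its UMIs lay in 1 cell. The call of Lag3 was not among the 8 made without cells that held 2 or more UMIs of other cell types' markers. Thbs1 and Cd14 are known from myeloid and stromal cells and were themselves among those markers. Without such cells both were too low to be tested. Without untreated mutant library 2 the adjusted p was 0.498 for Thbs1 and 0.585 for Cd14. Both calls were also lost without untreated wildtype library 2 (0.22 and 0.246), untreated mutant library 1 (both 0.0534) or wildtype DSS library 1 (both 0.239), and that of Cd14 without wildtype DSS library 2 (0.0511).

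A signal also lay outside the list of cells. Off the list, 2405 barcodes met the rule for the members, with at least 400 genes and under 20% mitochondrial UMIs. Of these, 1995 had no Cd4 UMI and 410 had one, and 13 (0.541%) had a Trdc UMI.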

How the results depend on the processing

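For DSS in the wildtype (1 gene called), the counts of called genes were 10 with DESeq2, 69 without the filter on low counts, 2 with members from 1 Il17a UMI, 7 after thinning, 18 without cells carrying other cell types' markers, 12 with only the 4 libraries compared, and 0 to 15 with single libraries left out. For DSS in the mutant (70) they were 230 without the filter and 4 to 83 with single libraries left out, the lowest without untreated mutant library 2 and 11 without replicate 1. For DSS on average (107) they were 273, 202 with the looser rule, 70 thinned, 167 without cells with other markers and 14 to 141. For mutant against wildtype, untreated (10), they were 103 without the filter, 28 without cells with other markers, 22 with only the 4 libraries compared and 0 to 47. After DSS (0) they were 31, 7 and 0 to 7, and on average (0) 56, 16 and 0 to 17. For the difference between DSS effects (3) they were 5 with DESeq2, 53 without the filter, 6 without gamma-delta cells, 1 thinned, 8 without cells with other markers and 0 to 10. Against Il22 cells (59) they were 26 with DESeq2, 136 without the filter, 3 thinned and 36 to 69. Against Ifng cells (30) they were 14, 96 without the filter and 16 to 33, and against poised cells (381) 24 thinned and 273 to 389. The fits also tested different numbers of genes, so the counts are not parts of equal sets. For the conditions, 6149 genes were tested in the main fit, 15209 without the filter and 7216 with the looser rule. Thinned, 1703 were tested, and 5436 without cells with other markers. With DESeq2, 1376 were tested for DSS in the wildtype. After thinning, 50 to 348 members per library were left, and fewer libraries in some comparisons of populations. Otherwise the cause was not tested.

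A replicate block of neighbouring animal numbers, which no label calls a pairing, gave 46 calls for mutant against wildtype untreated, 1 after DSS, 5 on average and 16 for the difference of DSS effects. It could not be fitted for DSS, since the numbers are nested in treatment. Deviations of neighbouring libraries correlated at 0.0903 untreated and -0.00681 with DSS.

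With single libraries left out, the members' part of Il17a cells differed by 14.9 to 18.2 points with DSS (15.5 thinned) and by -3.45 to 4.14 between genotypes (-1.16, -2.79 and -3.29 without untreated wildtype library 1 and mutant DSS libraries 1 and 2), the Ifng part by -13.5 to -10.1 and the share of members by 0.575 to 6.22 with DSS and -0.274 to 5.68 between genotypes. Signs turned, below the threshold, for Il17f after DSS in the wildtype (-0.32 to 0.36 with single libraries left out, the lowest without wildtype DSS library 1) and between genotypes after DSS (0.0284 with the looser rule, 0.00175 without gamma-delta cells, -0.40 to 0.37 with single libraries left out). They also turned for Lag3 with DSS in the wildtype (-0.31 thinned) and Fabp4 with DSS (-6.45 to 0.15 with single libraries left out, the highest without untreated wildtype library 1). Against Ifng cells they turned for Svs5 (0.47 without gamma-delta cells and 0.59 without cells with other markers) and, thinned, for Lars2 (-0.0440), AY036118 (-0.0486), Gm42418 (-0.0574) and Il17f (-0.0858; -0.0927 to 0.120 with single libraries left out). Against poised cells, thinning turned Gpr183 (-0.23), Ctla4 (-0.0587), Nr4a1 (-0.24), Hspe1 (0.0882) and Igha (-0.0738). The alternative without cells carrying other markers, and the comparisons of parts of Il17a cells, were chosen after seeing the data. Depth limited genes near 10 CPM, and the smallest library held 79 members.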
